A study of Homo sapiens with 12 samples.

Results

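Genes with a ZNF symbol form the largest block of zinc-finger genes in human gene tables. The members described here were selected on their symbol (ZNF followed by a number) and on at least 300 reads in all when counts were summed over the 12 libraries of the series, which kept 282 of 479 ZNF rows. All 282 passed the filter on low counts and were among the 11803 genes tested. Of the other 197 rows, 50 had no reads.

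Transcripts were counted by 3′ RNA-seq in the breast cancer cell line CAMA-1, which expresses the oestrogen receptor (ER), with 3 biological replicates in each of 4 groups. Wild-type cells received DMSO (the vehicle), abemaciclib at 100 nM, fulvestrant at 5 nM, or abemaciclib with fulvestrant, for which the labels give no separate doses. Abemaciclib inhibits the cell cycle kinases CDK4 and CDK6, and fulvestrant binds ER and causes its degradation. Treatment lasted 5 days, and all groups come from 1 line.

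A C2H2 zinc finger is a short loop in which a pair of cysteines and a pair of histidines hold a zinc ion, and arrays of such fingers read DNA base by base. Many ZNF proteins also carry a KRAB box, which binds the corepressor TRIM28 (KAP1) and through it brings SETDB1, a histone H3 lysine 9 methyltransferase, and HP1 proteins to chromatin. KRAB zinc-finger proteins are best known for silencing retroelements, and most of their genes arose by local duplication and sit in clusters on chromosome 19. ZNF proteins without a KRAB box include RNA-binding proteins, kinetochore and ribosome factors, and several genes amplified in breast tumours.

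A KRAB box pattern was found in the translated main transcript of 161 of the 281 members that matched the gene annotation, and 107 of these 161 lie on chromosome 19. In all, 135 members are on chromosome 19. The 161 are called the KRAB class here. The other 120 are members without the pattern, which does not show that they lack a KRAB box. The median number of fingers was 12 with the pattern and 7 without. ZNF720 had no match by symbol and is in neither class.

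The threshold on reads gives the members' floor. ZNF816, ZNF799 and ZNF674 lay just inside it, with 301, 302 and 302 reads, and ZNF829, ZNF462 and ZNF620 just outside, with 290, 284 and 282. A level of 75 reads over the 3 libraries of a group, the threshold shared evenly over the groups, was met by 261 members in DMSO, by 273 with abemaciclib, by 276 with fulvestrant, by 279 with both drugs, and by 253 in every group. The other 29 did not meet it in at least 1 group. Among them ZNF140, ZNF329, ZNF436, ZNF319, ZNF527 and ZNF571 had 43 to 69 reads in DMSO and would have stayed under 300 reads in all at their DMSO level, so the rule itself used their high values and their rises are given as description. ZNF367 and ZNF724 were under 75 reads with fulvestrant and with both drugs, and ZNF763 with abemaciclib. Their changes against these groups are likewise a description of genes kept partly for their high groups.

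The sequences of 3 promoters are given because they frame what the letters near a start site did and did not share with the response. Each is the RefSeq window (GRCh38.p14) from 250 bases before to 50 bases after the start, read 5′ to 3′ along the gene, and capitals mark E2F-type sites (TTTCCCGC, TTTCGCGC, TTTGCCGC or TTTGGCGC on either strand). ZNF367 is the member that fell most, ZNF615 holds a site and rose with fulvestrant, and ZNF175 holds none and also rose with fulvestrant. The windows are chr9:96418321-96418620 (minus strand), chr19:52008162-52008461 (minus strand) and chr19:51571033-51571332 (plus strand).
ZNF367: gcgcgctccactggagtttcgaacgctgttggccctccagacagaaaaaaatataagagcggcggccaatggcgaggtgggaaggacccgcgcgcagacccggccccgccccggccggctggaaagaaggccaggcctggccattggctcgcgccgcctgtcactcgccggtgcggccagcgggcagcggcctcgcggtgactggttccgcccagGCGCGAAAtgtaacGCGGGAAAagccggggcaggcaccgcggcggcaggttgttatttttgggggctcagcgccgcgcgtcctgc
ZNF615: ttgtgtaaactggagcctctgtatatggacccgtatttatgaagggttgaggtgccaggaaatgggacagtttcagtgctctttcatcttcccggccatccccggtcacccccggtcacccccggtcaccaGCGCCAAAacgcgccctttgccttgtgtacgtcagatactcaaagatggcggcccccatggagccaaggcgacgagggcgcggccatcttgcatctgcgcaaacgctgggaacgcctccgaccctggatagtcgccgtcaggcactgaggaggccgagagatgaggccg
ZNF175: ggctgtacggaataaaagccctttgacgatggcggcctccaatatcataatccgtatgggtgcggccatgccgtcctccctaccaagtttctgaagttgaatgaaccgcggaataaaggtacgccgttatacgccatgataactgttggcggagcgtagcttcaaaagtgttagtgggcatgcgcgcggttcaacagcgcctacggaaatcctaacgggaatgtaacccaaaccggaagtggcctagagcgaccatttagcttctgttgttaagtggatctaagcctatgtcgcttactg

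Of 244 members in the promoter table, 14 held an E2F-type site (5.74%), against 3.32% of all 35116 promoters in it. ZNF367 and ZNF615 are among the 14, with 2 sites and 1. With fulvestrant, 6 of these 14, ZNF615 among them, were called higher (42.9%), beside 39.1% of the 230 members whose promoter held none and 25.3% of all genes tested, and the shares of members lie near each other. ZNF367 was the only one of the 14 called lower, beside 25.7% of all genes. A palindromic oestrogen response element, GGTCA and TGACC separated by any 3 bases, was in no member promoter and in 0.057% of all promoters. No match says only that these letters are not in this window.

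Levels are CPM, counts scaled to TMM-adjusted library sizes. A 3′ library yields about 1 tag per transcript, so CPM can be set side by side between genes with little effect of length. In DMSO the member means ran from 3.03 to 493.6 CPM with a median of 14.3, and 92 members were under 10 CPM. The 10 highest were ZNF106, ZNF703, ZNF428, ZNF24, ZNF451, ZNF652, ZNF148, ZNF217, ZNF770 and ZNF281, and they held 27.1% of the members' summed level.

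The summed level of the 282 members was higher in each treated group than in DMSO. It was 7352, 7247 and 7349.7 CPM in the DMSO libraries and 7729, 7592 and 7603 in abemaciclib. With fulvestrant it was 8710.0, 8554 and 8714, and with both drugs 9085, 8804 and 8829. No library of one group overlapped another group, and an exact permutation test of 3 libraries against 3 cannot give a two-sided p below 0.1. As a share of raw counts the members took 0.738% to 0.751% in DMSO and 0.883% to 0.914% in the combination, while abemaciclib, at 0.736% to 0.755%, overlapped DMSO.

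**Figure D1:**
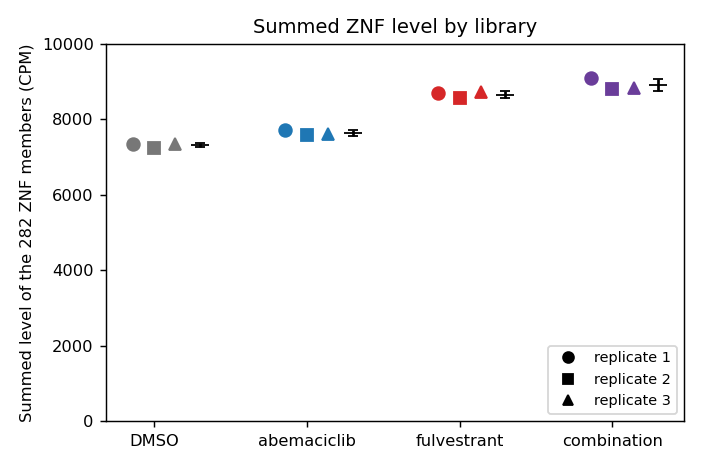
Summed level of the 282 ZNF members in each library, in CPM on TMM-scaled library sizes, on a linear axis from 0. Symbols are replicates and the bar is the mean ± SD of 3 libraries; the DMSO libraries lie at 7247 to 7352 CPM and the combination libraries at 8804 to 9085.

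Total counts were 3299119 to 5164667 per library. Each library correlated best with its own group, but fulvestrant replicate 3 stood apart, with a chi-square per degree of freedom of 9.70 and 15.3 against its group's other libraries and at most 5.57 for every other pair. All 8 luminal markers were present in every library, with summed levels of 5625 to 5949 CPM in DMSO, 6631 to 6782 with abemaciclib, 7087 to 7722 with fulvestrant and 6740.0 to 7445 with both drugs. The 6 mesenchymal markers summed to 18.4 to 22.4 CPM in DMSO, 27.0 to 33.6 with abemaciclib, 29.9 to 39.2 with fulvestrant and 25.4 to 28.6 with both, mostly COL1A1 (14.3 to 26.0 CPM), with COL3A1 and VIM above 0 in every library and COL1A2, DCN and LUM at 0. The 5 leukocyte markers summed to at most 1.98 CPM and the 3 endothelial markers to at most 0.846, with CD3E, PECAM1 and CDH5 at 0 in all 12. Every treated library had higher luminal and mesenchymal sums than every DMSO library, as it had a higher members' sum, and their part in the members' changes was not tested. In bulk RNA, fewer cells of one state and less RNA per cell cannot be told apart. MKI67, a proliferation marker, went from a mean of 511 CPM in DMSO to 54.2 with abemaciclib, 43.8 with fulvestrant and 2.21 with both, and its part in the members' changes was not tested.

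The comparison of abemaciclib with DMSO asks what CDK4/6 inhibition alone does to these genes. Of the 282 members, 60 were called higher and 23 lower by edgeR's quasi-likelihood test, at an adjusted p (Benjamini-Hochberg, over all genes tested) under 0.05. That is 21.3% and 8.16% of the members, beside 20.5% and 20.7% of all genes tested. The share called higher was therefore near the background, and the share called lower was under it. The median log2 fold change was 0.11, against 0.00 for all genes. The 29 members under 75 reads in some group held 8 of the 60 and 1 of the 23.

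Most of the rises were in the KRAB class. With abemaciclib 45 of 161 KRAB members were called higher (28.0%) and 6 lower (3.73%), with a median log2 fold change of 0.20. Of 120 members without the pattern, 15 were higher (12.5%) and 17 lower (14.2%). These stand beside 20.5% higher and 20.7% lower of all genes tested. Among the 107 KRAB members on chromosome 19, 35 were higher (32.7%) and 2 lower (median 0.29). Among the 54 elsewhere 10 were higher (18.5%, near the share of all genes) and 4 lower (median 0.03). These counts are a description, and no test of one class against another was made.

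ZNF552, a KRAB gene of chromosome 19, showed the rise in every library. Its level was 15.1, 13.5 and 17.0 CPM in DMSO and 35.01, 38.4 and 35.1 in abemaciclib, so the log2 difference was 1.25 (SE 0.15, adjusted p 1.4e-07). The groups did not overlap, and the fulvestrant and combination means, 34.2 ± 6.50 and 33.8 ± 1.32 CPM (SD, n = 3), were alike in size. ZNF862 rose by 1.18 (SE 0.22) and ZNF461 by 1.11 (SE 0.23), from DMSO means of 6.67 and 5.67 CPM. ZNF329, at 4.06 ± 1.19 CPM in DMSO and 11.1 ± 2.29 with abemaciclib, had a larger log2 fold change, 1.44, and ZNF140, ZNF319, ZNF571 and ZNF527 had 1.04 to 1.25, but these 5 are members only through the groups in which they were high. ZNF891, a gene on the opposite strand, overlaps the 3′ end of ZNF140, and whether counting used strand is not given in the sources used here.

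Of 5 members known to bind or repress retroelements, 2 were called higher and 1 lower with abemaciclib, beside 20.5% and 20.7% of all genes tested. The list was not tested against these shares, and 5 genes are too few to set its counts apart from them. ZNF91, a KRAB protein that represses SVA retrotransposons, rose. Its DMSO libraries had 27.9, 24.1 and 21.7 CPM and its abemaciclib libraries 48.2, 48.8 and 43.5, and the log2 difference was 0.94 (SE 0.12, adjusted p 3.5e-07). Its level was 50.9 ± 2.63 CPM with fulvestrant and 53.3 ± 2.33 with both drugs. Every treated library lay above every DMSO library. ZNF93, which represses LINE-1 elements, rose from 5.76 ± 0.461 to 10.00 ± 2.81 CPM, and without abemaciclib replicate 1 its adjusted p was 0.12. It had 5.32 ± 0.464 CPM with fulvestrant and 5.46 ± 0.433 with both drugs (adjusted p 0.75 and 0.81 against DMSO). ZNF141, which binds LINE-1 elements, fell by 0.82 on the log2 scale (SE 0.21). ZNF649 and ZNF765, which also bind LINE-1 elements, had log2 fold changes of -0.09 and -0.01 (adjusted p 0.99 for ZNF765). ZNF649 had 73 reads in DMSO and 69 with abemaciclib, so its value is given without its test.

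The falls were led by ZNF367, a factor with 2 fingers and no KRAB pattern whose expression follows the cell cycle. It had 29.7, 38.2 and 38.5 CPM in DMSO, 5.20, 7.06 and 10.4 in abemaciclib, 2.97, 4.80 and 3.87 in fulvestrant, and 0.962, 1.03 and 0.971 with both drugs. The 4 groups did not overlap. The log2 fold change against DMSO was -2.27 with abemaciclib (SE 0.20, adjusted p 5.2e-10). It was -3.21 with fulvestrant and -5.13 with both, given without their test because ZNF367 was under 75 reads in these groups. In the combination these values rest on 4, 5 and 5 reads.

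ZNF106, an RNA-binding protein and the most abundant member in DMSO, fell in all treated groups. Its libraries had 539, 469.8 and 472 CPM in DMSO, and 310.5, 288 and 312 in abemaciclib. With fulvestrant the mean was 322 ± 29.8 CPM and with both drugs 329 ± 8.86. The log2 fold changes against DMSO were -0.70, -0.61 and -0.58 (SE 0.08 each), and no treated library reached the lowest DMSO library. CAPN3, a gene on the opposite strand, has an exon at the 3′ end of ZNF106, and whether counting used strand is not given. ZNF326, a subunit of the DBIRD complex that links transcription to splicing, fell from 53.6 ± 5.26 to 30.7 ± 0.673 CPM with abemaciclib, by 0.80 on the log2 scale (SE 0.13). ZNF207 (BuGZ), a BUB3 partner at kinetochores, fell from 109.6 ± 7.45 to 83.8 ± 7.26 CPM, by 0.38 (SE 0.09). Further falls with abemaciclib were seen for ZNF654, ZNF511, ZNF496, ZNF473 and ZNF512, by 0.72 to 0.96, and the call for ZNF512 was lost without DMSO replicate 2 (adjusted p 0.061).

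Fulvestrant against DMSO asks what ER degradation does. Here 109 members were called higher and 19 lower, or 38.7% and 6.74%, beside 25.3% and 25.7% of all genes tested. The median log2 fold change was 0.32, against 0.01 for all genes. Among 6706 other genes in the same range of levels, 1742 were higher and 1679 lower, with a median of 0.02. The 29 members under 75 reads in some group held 13 of the 109 and 2 of the 19. Leaving out fulvestrant replicate 3 gave 110 higher and 21 lower.

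The median was again higher in the KRAB class. There, 70 of 161 members were higher and 3 lower with a median of 0.44. Without the pattern, 38 of 120 were higher and 16 lower with a median of 0.14. On chromosome 19, 57 of the 107 KRAB members were higher (53.3%) and 1 was lower (median 0.52). Of the 54 KRAB members elsewhere, 13 were higher (24.1%, near the 25.3% of all genes) and 2 lower (median 0.26). Among members without the pattern, 10 of 28 on chromosome 19 were higher (35.7%, median 0.20) and 28 of 92 elsewhere (30.4%, median 0.11). By number of fingers, the median was 0.14 with 0 to 4 fingers, 0.20 with 5 to 9, 0.39 with 10 to 14 and 0.42 with 15 or more. KRAB members have more fingers, and those with 10 or more had a median of 0.45, close to the 0.44 of all KRAB members. Across 281 members, which share their libraries, the log2 fold change and the number of fingers had a Pearson r of 0.161. For the combination against abemaciclib r was 0.055.

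**Figure D2:**
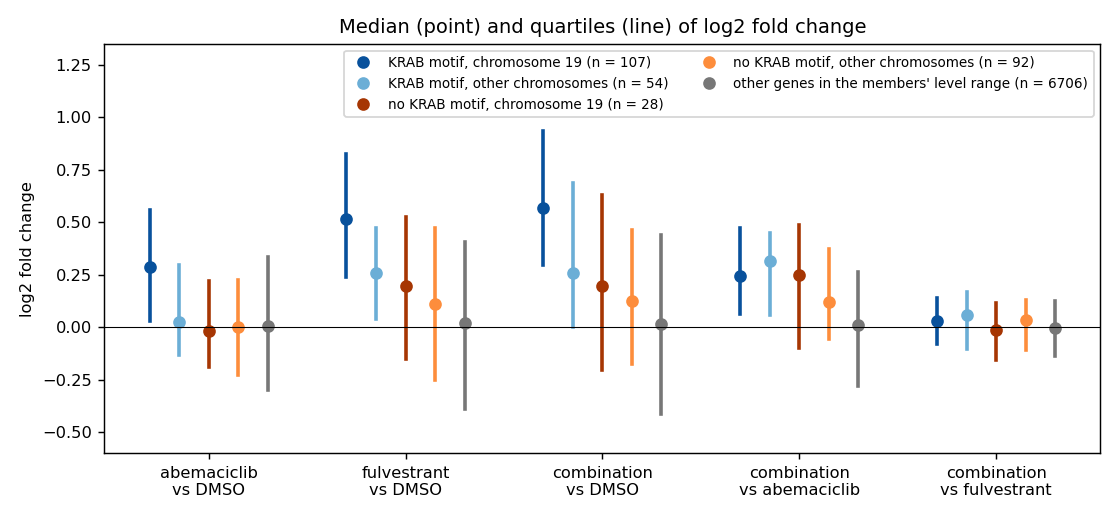
Median (point) and quartiles (line) of the log2 fold change in 5 comparisons. ZNF members with and without the KRAB pattern, on chromosome 19 and elsewhere, stand beside other genes in the same range of levels. KRAB members on chromosome 19 had medians of 0.29, 0.52 and 0.57 against DMSO, and the other genes stayed within 0.02 of 0.

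In other zinc-finger families, too, more genes were called higher than lower with fulvestrant. Of 33 ZBTB genes with at least 300 reads, 20 were called higher and 3 lower, of 16 ZSCAN and ZKSCAN genes 10 were higher and none lower, and of 11 KLF genes 7 were higher and 1 lower. Of 10 ZFP genes 4 were higher and 1 lower. Among all genes tested, 25.3% were higher and 25.7% lower with fulvestrant. No family was tested against these shares, and 10 genes are too few to set the ZFP count apart from them.

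ZNF175, a KRAB protein with 13 fingers, had the rise with the smallest error among the largest. Its level was 14.3, 8.36 and 8.89 CPM in DMSO, 20.6, 17.0 and 13.9 in abemaciclib, 50.2, 53.3 and 40.8 in fulvestrant, and 41.4, 38.7 and 42.1 with both drugs. All libraries that received fulvestrant lay above all that did not. The log2 fold change with fulvestrant was 2.24 (SE 0.18, adjusted p 2.2e-11). The noncoding gene LINC01530 overlaps its 3′ end on the other strand.

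ZNF436, a member only through the treated groups, had a log2 fold change of 2.31, given here without its test. Its fulvestrant libraries had 13.8, 27.6 and 7.07 CPM against 1.78, 3.99 and 3.31 in DMSO. The SD over the fulvestrant libraries was 10.5 CPM on a mean of 16.2. ZNF350, ZNF524, ZNF362 and ZNF862 rose by 1.45 to 1.57, and ZNF329 and ZNF140, chosen as ZNF436 was, had 1.88 and 1.47.

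ZNF652, a DNA-binding repressor studied in breast cancer, had the largest rise in CPM of the 282 members. Its libraries had 177, 152 and 146 CPM in DMSO, 198, 192 and 192 in abemaciclib, 375, 373 and 371 in fulvestrant, and 394, 351 and 345 with both drugs. Libraries with and without fulvestrant were wide apart. The log2 fold change was 1.24 with fulvestrant (SE 0.08, adjusted p 6.9e-13) and 0.30 with abemaciclib (SE 0.08, adjusted p 0.0051).

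ZNF703, a transcriptional repressor amplified in luminal breast cancer, moved in opposite directions with the drugs. It had 234, 272 and 251 CPM in DMSO, 344, 302 and 345 in abemaciclib, 97.1, 103 and 98.2 in fulvestrant, and 128, 97.8 and 114 with both drugs. The libraries fell into separate ranges for DMSO, for abemaciclib and for the fulvestrant-treated groups. The log2 fold change was 0.39 with abemaciclib (SE 0.09, adjusted p 0.00083) and -1.35 with fulvestrant (SE 0.09, adjusted p 2.0e-12). TFF1, an ER target, had group means of 60.5, 381.5, 1.46 and 2.32 CPM in the same order.

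ZNF217, amplified in breast cancer and a partner of corepressors, rose with each drug. Its means were 140.2 ± 18.9 CPM in DMSO, 205 ± 16.6 in abemaciclib, 219 ± 11.9 in fulvestrant and 244 ± 15.1 with both drugs. The log2 fold changes against DMSO were 0.55, 0.65 and 0.80 (SE 0.09 each), with every treated library above the DMSO libraries. ZNF750, an epithelial differentiation factor, had too few reads to be a member.

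**Figure D3:**
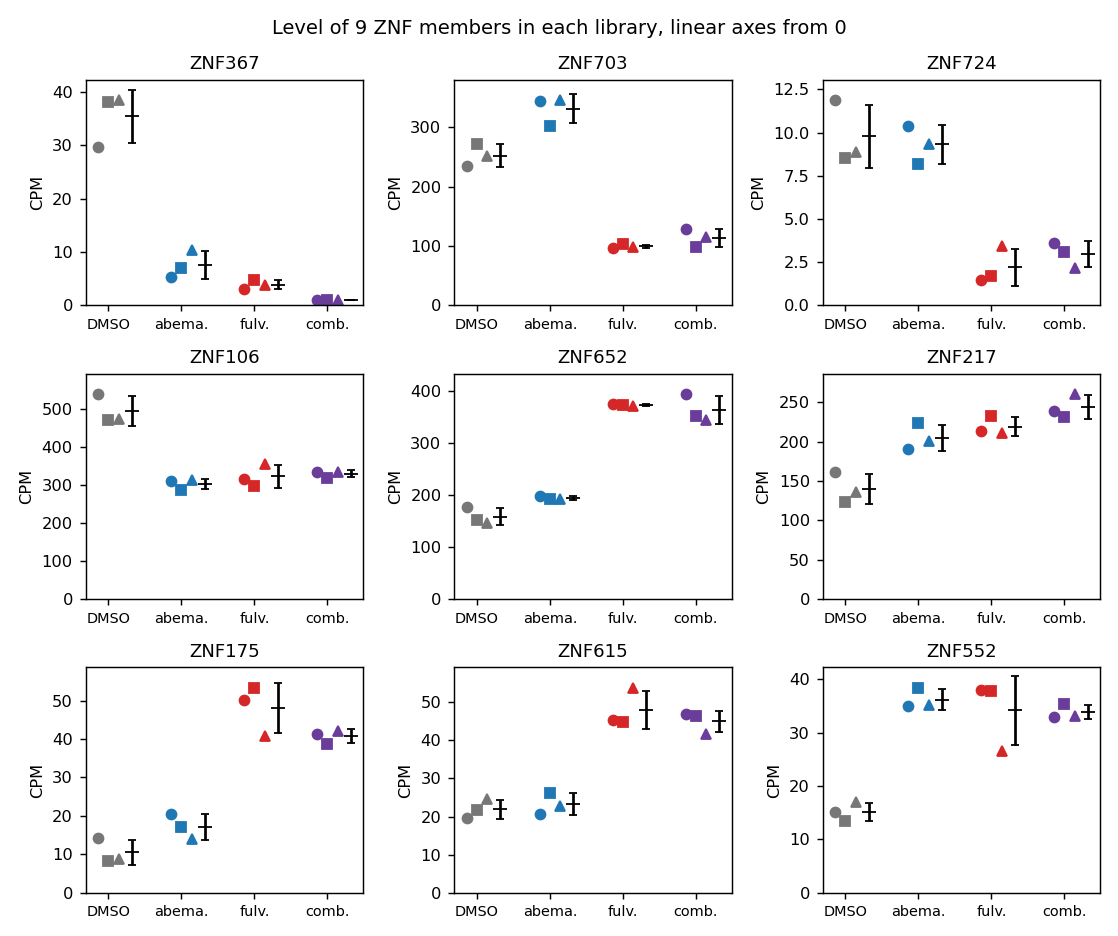
Level of 9 members in each library in CPM, on linear axes from 0 that differ between panels, with replicates as symbols and the mean ± SD of 3 libraries as a bar. ZNF703 and ZNF724 are low and ZNF652, ZNF175 and ZNF615 high in both groups that received fulvestrant, while ZNF106 and ZNF552 lie close together in the 3 treated groups.

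Of 8 members that act as promoter factors, 3 were called higher with fulvestrant (37.5%, beside 25.3% of all genes and 38.7% of the members) and none lower (beside 25.7%). ZNF24, a SCAN domain factor, rose from 164 ± 5.14 to 279 ± 12.7 CPM, by 0.76 (SE 0.08), ZNF281 rose from 111 ± 7.32 to 158 ± 16.5 CPM, by 0.51 (SE 0.09), and ZNF76 rose by 0.62 (SE 0.19). ZNF148, the paralogue of ZNF281, had 158 ± 11.6 and 164 ± 12.0 CPM (adjusted p 0.58), and ZNF143, the paralogue of ZNF76, had 9.56 ± 2.15 and 7.46 ± 0.784 CPM (adjusted p 0.19).

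Of 9 members that act on RNA, ribosomes or kinetochores, 3 rose and 4 fell with fulvestrant (33.3% and 44.4%, beside 25.3% and 25.7% of all genes). ZNF346, which binds double-stranded RNA, ZNF638, a nuclear RNA-binding protein, and ZNF830, a splicing-associated factor, rose by 0.40 to 0.49. ZNF106, ZNF207, ZNF326 and ZNF598, a ubiquitin ligase of collided ribosomes, fell. The call for ZNF598 (-0.34, SE 0.12) was lost with DESeq2 (adjusted p 0.051) and without DMSO replicate 1, DMSO replicate 3 or fulvestrant replicate 1 (0.054 to 0.071).

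Besides ZNF367 and ZNF703, ZNF724 fell with fulvestrant. This KRAB gene had 11.9, 8.55 and 8.89 CPM in DMSO and 1.48, 1.69 and 3.42 in fulvestrant. The log2 fold change was -2.09, given without its test. Its abemaciclib libraries, at 10.4, 8.17 and 9.35 CPM, lay in the DMSO range. ZNF511, ZNF473, ZNF496 and ZNF714 fell by 0.61 to 1.25.

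Genes of the KRAB corepressor pathway, which are not members, were read beside them. Of 18 such genes, 10 were called lower and 1 higher with abemaciclib (55.6% and 5.56%, beside 20.7% and 20.5% of all genes), and 9 lower and 3 higher with fulvestrant (16.7% higher, beside 25.3% of all genes, and 9 of 18 lower, beside 25.7%). TRIM28 itself fell from a mean of 253 CPM in DMSO to 166 and 165, by 0.61 on the log2 scale in both (SE 0.08). The heterochromatin protein gene CBX5 fell by 0.65 and 0.64 and the maintenance methyltransferase DNMT1 by 1.17 and 1.34. SETDB1 had a log2 fold change of 0.25 with abemaciclib (adjusted p 0.073) and rose by 0.29 with fulvestrant (adjusted p 0.030). DNMT3A, the only 1 of the 18 called higher with abemaciclib, rose by 0.42 (adjusted p 0.0037) and with fulvestrant by 0.44 (adjusted p 0.0016). ATF7IP had 0.22 with abemaciclib (adjusted p 0.14) and rose by 0.67 with fulvestrant (adjusted p 4.6e-05). The part of these changes in the members' levels was not tested.

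Against DMSO, the combination gave 121 members higher and 20 lower, or 42.9% and 7.09%, beside 27.7% and 27.5% of all genes tested. The median log2 fold change was 0.33. In the KRAB class 81 were higher and 4 lower (median 0.47), and without the pattern 39 were higher and 16 lower (median 0.15). Of the KRAB members, 64 of 107 on chromosome 19 were higher (59.8%) and 17 of 54 elsewhere (31.5%, beside 27.7% of all genes). ZNF175 rose by 2.00 (SE 0.18), ZNF461 by 1.56 (SE 0.22), ZNF425 by 1.40 (SE 0.20) and ZNF524 by 1.39 (SE 0.21). Of the 121, 19 were among the 29 members under 75 reads in some group.

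The combination against abemaciclib asks what fulvestrant adds when CDK4/6 is already inhibited. It gave 67 members higher and 10 lower, or 23.8% and 3.55%, beside 15.9% and 17.7% of all genes. The lower count was 6 without abemaciclib replicate 3 and 6 with DESeq2. Here the share called higher was smaller in the KRAB class, at 32 of 161 (19.9%), than without the pattern, at 35 of 120 (29.2%). The numbers called lower were 7 and 3, and the medians were 0.26 and 0.14. This comparison shares no library with fulvestrant against DMSO, and 50 members were called higher in both, which is 45.9% of the 109 and 74.6% of the 67. Across the 282 members the log2 fold changes of these comparisons had a Pearson r of 0.616, against 0.692 over all 11803 genes, so the members did not stand above the background here. ZNF175 rose by 1.23 (SE 0.16), ZNF524 by 1.14 (SE 0.21) and ZNF296 by 1.07 (SE 0.13). ZNF763 had a log2 fold change of 1.15, given without its test.

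ZNF615, whose promoter is printed above, was one of the genes raised by fulvestrant in both settings. It had 19.6, 21.7 and 24.6 CPM in DMSO, 20.6, 26.3 and 22.7 in abemaciclib, 45.2, 44.9 and 53.8 in fulvestrant, and 46.9, 46.3 and 41.8 with both drugs. The log2 fold changes were 1.12 (SE 0.13) against DMSO and 0.95 (SE 0.13) against abemaciclib. Without fulvestrant the groups overlapped (adjusted p 0.73). Falls in this comparison were led by ZNF367, ZNF724 and ZNF703, by 2.87, 1.67 and 1.55.

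**Figure D4:**
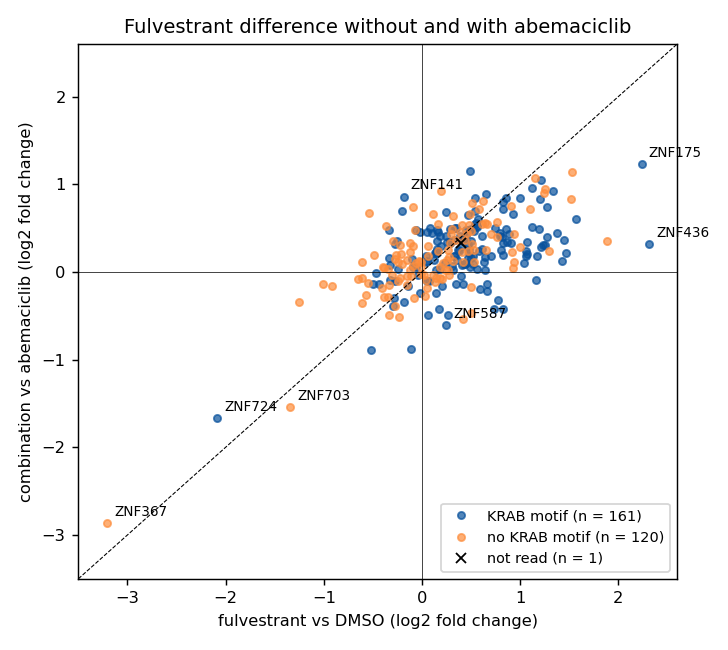
Log2 fold change of each member with fulvestrant in the absence (x axis) and presence (y axis) of abemaciclib, coloured by KRAB pattern. The dashed line marks equal values and no library is shared between the axes. ZNF367, ZNF724 and ZNF703 lie at the lower left and ZNF175 at the upper right, and across all 282 members r was 0.616.

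Adding abemaciclib to fulvestrant gave 0 members higher and 2 lower by edgeR, beside 0.297% and 1.63% of all genes. At an unadjusted p under 0.05 there were 13 higher and 8 lower, and DESeq2 called 0 and 2. The 2 were ZNF367 and ZNF254, a KRAB gene. ZNF367 had a log2 fold change of -1.93, given as description because it was under 75 reads in both groups. ZNF254 fell from 13.0 ± 0.792 to 6.28 ± 0.666 CPM (adjusted p 0.011). The ZNF367 call was lost without combination replicate 3 (0.054) and the ZNF254 call without combination replicate 1, combination replicate 3 or fulvestrant replicate 1 (0.053 to 0.067). Without fulvestrant replicate 3 the counts were 4 higher and 5 lower.

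The interaction asks whether the abemaciclib effect differed with fulvestrant present, as the log2 change with it minus the change without it. Of the members, 13 were called positive and 29 negative, or 4.61% and 10.3%, beside 9.49% and 11.6% of all genes, so the negative share was near the background. The positive count was 8 without combination replicate 1 and 8 with DESeq2. The KRAB class held 21 of the 29 and 2 of the 13, which is 13.0% and 1.24% of its 161 members. Its negative share, too, was near the 11.6% of all genes. ZNF552 had an interaction of -1.26 (SE 0.20, adjusted p 5.1e-05), since its abemaciclib rise of 1.25 stood beside a difference of -0.01 when fulvestrant was present. ZNF91 had -0.88 (SE 0.16). ZNF106 had 0.73 (SE 0.11, adjusted p 3.0e-05), as its change of -0.70 with abemaciclib stood beside a difference of 0.03 when fulvestrant was present.

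Members that lie next to each other were read as runs, in which neighbouring starts were at most 250 kb apart. There were 19 runs of 3 or more with 155 members. The run of 10 from ZNF420 to ZNF573 lies on chromosome 19 (37007857 to 37817300, GRCh38). It had 7 members higher and none lower with abemaciclib, 8 higher with fulvestrant and 8 higher with both. The shares higher were 70.0%, 80.0% and 80.0%, beside 20.5%, 25.3% and 27.7% of all genes, of which 20.7% were lower with abemaciclib. ZNF527 and ZNF571, members only through the groups in which they were high, were called higher in each of these comparisons. The medians of the run were 0.70, 0.86 and 0.97. Of this run, ZNF607 went the other way, with 12.9 ± 1.33 CPM in DMSO and 9.44 ± 2.09 in abemaciclib (adjusted p 0.11).

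ZNF570, in the middle of that run, had 8.31, 6.46 and 9.51 CPM in DMSO and 19.8, 15.5 and 12.1 in abemaciclib. It had 18.3, 18.3 and 19.4 CPM in fulvestrant, and every treated library was above the DMSO libraries. ZNF875 rose from 9.18 ± 0.306 to 16.3 ± 2.69 CPM with abemaciclib and 19.2 ± 1.02 with fulvestrant.

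The largest run held 29 members from ZNF649 to ZNF331. It had 7 members higher and 1 lower with abemaciclib (24.1% higher, beside 20.5% of all genes, median 0.14), and 18 higher and none lower with fulvestrant (62.1%, beside 25.3%, median 0.48). The difference between these effects was not tested. ZNF613, ZNF350, ZNF615 and ZNF836 belong to this run. So does ZNF816, called higher with fulvestrant and a member only through the groups in which it was high. The run of 21 from ZNF264 to ZNF446, which holds ZNF552, ZNF587 and ZNF329, had 9 higher with abemaciclib and 11 with fulvestrant. These are 42.9% and 52.4%, beside 20.5% and 25.3% of all genes. None was lower, beside 20.7% and 25.7%. Among those called higher, ZNF329 and ZNF134 (both drugs alone) and ZNF417 and ZNF772 (fulvestrant) are members only through the groups in which they were high. The run of 9 on chromosome 16 from ZNF48 to ZNF629 had 1 higher and 1 lower with fulvestrant (11.1% each, beside 25.3% and 25.7%, median -0.09). Related ZNF genes in a run share sequence, and reads that fit several copies may have been lost or split, since the handling of such reads is not given in the sources used here.

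**Figure D5:**
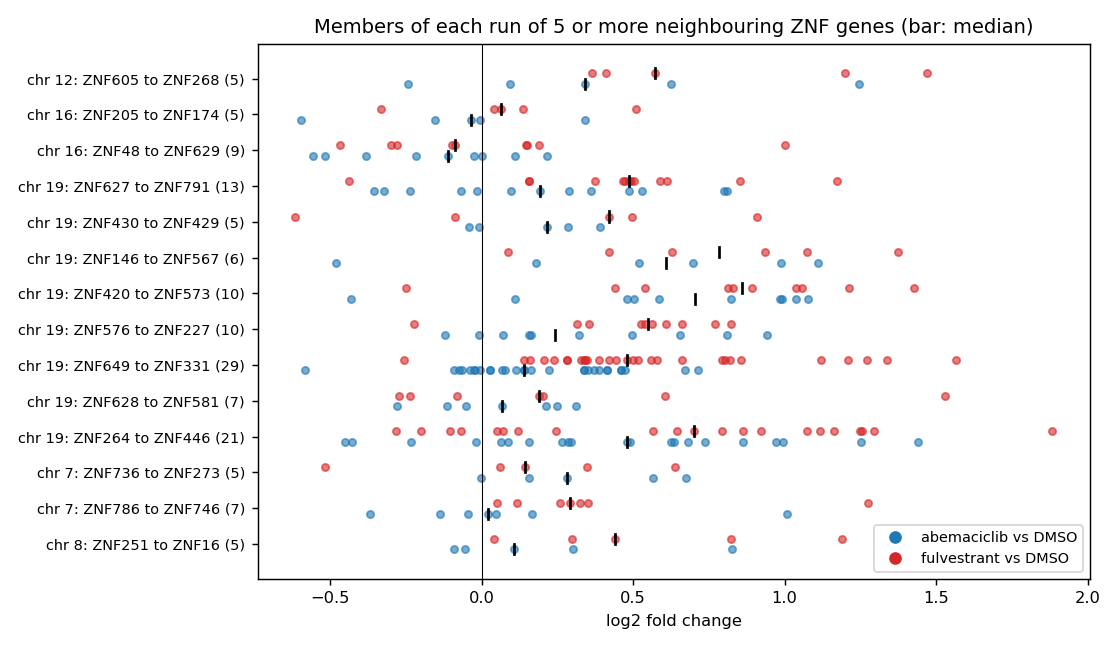
Log2 fold change of each member in runs of 5 or more neighbouring ZNF genes, with abemaciclib (blue) and fulvestrant (red) against DMSO; black bars are medians and numbers in brackets are members. The run from ZNF420 to ZNF573 has medians of 0.70 and 0.86, and the run from ZNF48 to ZNF629 lies around 0.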

How the data were processed

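The values deposited by the authors are raw read counts, 1 row per symbol, for 12 libraries. Per the study's methods and the submitters' processing notes, QuantSeq 3′ reads were trimmed with BBDuk 38.90, aligned to GRCh38 with STAR 2.7.5b and counted with featureCounts 2.0.1 on GENCODE 35. Strand and multi-mapping settings are not given in the sources used here. No molecular identifiers are named.

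The 44 unnamed rows held 0 reads and were left out. Groups came from the treatment labels. Counts were fitted in R 4.3.3 with edgeR 4.0.16 (filterByExpr, minimum count 10 and total 15; TMM; robust quasi-likelihood; 4 group means over 12 libraries). P values were Benjamini-Hochberg adjusted over 11803 genes at 0.05. The pipeline was tested on simulated data. Replicate numbers did not pair the libraries: 2 of 18 same-numbered pairs had correlated deviations over 0.1. P values weigh each difference against the spread between biological replicates, estimated over all 4 groups and moderated across genes.

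Named members were, per comparison, the 8 largest rises and 8 largest falls (5 and 5 for the combination against fulvestrant and the interaction) past the threshold with at least 5 CPM and, in pairwise comparisons, no overlap, plus the 10 highest in DMSO, members at the threshold and members of hand-written role lists. ZNF570, ZNF607 and ZNF875 were named after their values were seen. Members and lists were chosen with earlier results of these data known. Positions, fingers and KRAB patterns came from translated GENCODE 44 main transcripts, not RefSeq proteins as first planned, and the KRAB pattern was widened after a first, stricter one found too few. At the 3′ end (500 bases), 32 members had an exon of another gene on the opposite strand. Alternatives were DESeq2 1.42.0, other scaling, filters, thresholds, a replicate block and leaving out each library.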

Additional observations from a re-analysis of the deposited data

Results flagged for a closer look

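In these members the abemaciclib effect differed with and without fulvestrant by the interaction test (edgeR quasi-likelihood, adjusted p under 0.05 over all genes tested), given as log2 change with fulvestrant present minus change without it. Positive values were 1.21 for ZNF654, 1.05 for ZNF141, 0.90 for ZNF511, 0.89 for ZNF839, 0.87 for ZNF473, 0.73 for ZNF106 and 0.54 for ZNF326. Negative values were -0.33 for ZNF652, -0.36 for ZNF24, -0.40 for ZNF217, -0.88 for ZNF91, -1.25 for ZNF793, -1.25 for ZNF140, -1.26 for ZNF552, -1.30 for ZNF527 and -1.53 for ZNF329. The calls for ZNF839 and ZNF326 were lost with DESeq2 (adjusted p 0.076 and 0.092), and those for ZNF217, ZNF326, ZNF652, ZNF839 and ZNF473 were lost on leaving out at least 1 library. ZNF329, ZNF527 and ZNF140 are members only through the groups in which they were high, so their values are a description.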

How the results depend on the processing

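Depth limits the low members: 92 lay under 10 CPM in DMSO. No direction of a named member reversed under any alternative run. Requiring a 2-fold change left 9 members higher and 1 lower with abemaciclib, 34 and 5 with fulvestrant, 36 and 4 with the combination, 5 and 3 for the combination against abemaciclib, and 2 and 9 in the interaction. DESeq2 called 6 lower for the combination against abemaciclib and 8 positive in the interaction. For the combination against fulvestrant, the replicate block gave 1 higher, no filter on low counts 3 higher, 10 counts in every library 1 lower, and members of at least 600 reads 1 lower. The replicate block changed 1 named call, that of ZNF839 in the interaction (adjusted p 0.057). Medians at 600 reads were 0.076 with abemaciclib, 0.30 with fulvestrant and 0.054 for the combination against fulvestrant, and upper-quartile factors gave 0.13, 0.34 and 0.36 for the 3 comparisons with DMSO. The call for ZNF436 in the combination was lost with no filter on low counts (adjusted p 0.085) and on leaving out any DMSO library, abemaciclib replicate 2, fulvestrant replicate 1, or combination replicate 1 or 2 (0.056 to 0.11). The cause was not tested.

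Leaving out 1 library gave 47 to 64 higher, 17 to 24 lower and a median of 0.077 to 0.13 with abemaciclib, 93 to 110 higher, 15 to 21 lower and 0.31 to 0.35 with fulvestrant, and 106 to 128 higher, 17 to 21 lower and 0.33 to 0.37 with the combination. The combination against abemaciclib gave 59 to 75 higher, 6 to 14 lower (6 without abemaciclib replicate 3) and 0.20 to 0.23, and against fulvestrant 0 to 4 higher, 0 to 5 lower and 0.011 to 0.037. The interaction gave 8 to 17 positive (8 without combination replicate 1), 21 to 41 negative and -0.12 to -0.070.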
